A study of Mus musculus with 8 samples.

Results

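Cas9 cutting in the mouse gene Dach1 gave 806 minus-strand junctions within 10 kb of the cut, at 762 different positions, out of 10359 junctions in the 4 libraries of that cut site (site 1) and 11310 in all 8 libraries of the series. These totals add up the distinct junctions of each library, so a position found in 2 libraries counts in both. They were every read start on the minus strand of chromosome 14, 6 to 10000 bp to either side of the bait end at position 98168726 (mm10), with reads of the same start and strand counted once per library. The 10Q library held 451 of them, the sgRNA-only library 321, the 92Q library 34 and the non-targeting library 0. The assay reads outward from a biotinylated primer beside the cut (the bait) into whatever DNA follows it (the prey).

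All 4 libraries came from Neuro-2a cells, a mouse neuroblastoma line, transiently transfected with a PX458 plasmid that carries spCas9, an sgRNA and a GFP reporter. The 10Q and 92Q cells also received ataxin-7 with a normal or an expanded polyglutamine tract together with the site 1 sgRNA. The sgRNA-only cells received the site 1 sgRNA without ataxin-7, and the non-targeting cells received a non-targeting sgRNA without ataxin-7. The harvest took place at 48 h, 3 transfections went into each pool, cells positive for GFP were taken by sorting, and their DNA was broken into pieces of 750 bp. Each group is therefore 1 pooled library without a replicate, and the labels used here do not name the promoter driving ataxin-7. For the quality control the series' design text mentions the site 2 and non-targeting sgRNAs alone, so the site 1 sgRNA-only library is used as labelled. The libraries held 13152 reads (10Q), 963 (92Q), 8812 (sgRNA only) and 625 (non-targeting), or 2.37, 1.18 and 2.27 reads per distinct junction in the 10Q, 92Q and sgRNA-only libraries.

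A double-strand break leaves a pair of ends, and cells rejoin them mainly by end joining, often after nucleases have chewed the ends back. The strand of the prey tells how the ends met. Reads of uncut DNA ran from the bait end towards higher coordinates, since in the non-targeting library 378 of the 409 on-cut reads started at that base on the plus strand. A plus-strand prey on the higher-coordinate side therefore keeps the normal order with bases missing, as in a deletion. A minus-strand prey is joined in inverted order. On the higher-coordinate side it has the orientation of an inversion of the stretch beyond the cut. On the lower-coordinate side it points back along the bait's own arm, the orientation made when like ends of a pair of chromosome copies are joined. These are names for orientations. The reads do not show which rearrangement was present.

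The sgRNA and primer that define the bait are shown here, with capitals marking the 3 bases of the target next to the protospacer-adjacent motif, the side on which Cas9 cuts. No genome sequence was used here, so neither was placed by sequence.
site 1 sgRNA target: ggtagacatcagcgctgTTG
site 1 bait primer: actaaaaagagcgcccctctttc
The bait end lies in the body of Dach1, the gene of a transcription factor of the dachshund family (chromosome 14, 97786846 to 98169765, minus strand, GRCm38.p6 in RefSeq). The gene is read towards lower coordinates, the direction in which minus-strand prey also run. The whole lower-coordinate side of the window, from 98158726, is in the Dach1 body, and the higher side leaves it after 1039 bp. Beyond a gap of 138 bp lies Gm33583, a long non-coding RNA gene on the opposite strand (98169904 to 98188620). The gene table gives gene bodies without exons, so exonic and intronic positions are not told apart. The Dach1 body held 389 of the 451 10Q junctions, 29 of the 34 92Q junctions and 268 of the 321 sgRNA-only junctions.

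Inverted joinings lay mostly on the lower-coordinate side of the cut, where the normal-order joinings were scarce. With 10Q, 334 minus-strand junctions were on the lower side and 117 on the higher side. With 92Q the numbers were 23 and 11, and with sgRNA only 232 and 89. The higher-side share was thus 25.9% of minus-strand junctions with 10Q (exact Clopper-Pearson 95% interval 22.0 to 30.2), 32.4% with 92Q (17.4 to 50.5) and 27.7% with sgRNA only (22.9 to 33.0). These intervals, like the others here, cover counting error only, since PCR copies carried no molecular identifier and need not be independent molecules. Plus-strand junctions had a higher-side share of 96.6%, 96.7% and 97.8% in the same libraries. The difference between strands was -70.6 percentage points with 10Q, -64.3 with 92Q and -70.0 with sgRNA only (adjusted p = 3.32e-216, 6.68e-16 and 1.80e-170, Benjamini-Hochberg over 13 tests, by a two-sided Fisher's exact test). Such a test compares strands or libraries, not conditions, since no group had a second library. Normal-order joinings that lose bases are plus-strand and on the higher side by the way the assay reads. The 11 near junctions of the non-targeting library were all of this kind too. A strand difference in this direction was thus partly set by the design, and neighbouring starts need not be independent. The p-values therefore add little to the shares. With junctions of 2 or more reads the 92Q library kept 1 minus-strand junction, and the call was lost (adjusted p = 0.134 by Fisher's exact test).

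**Figure D1:**
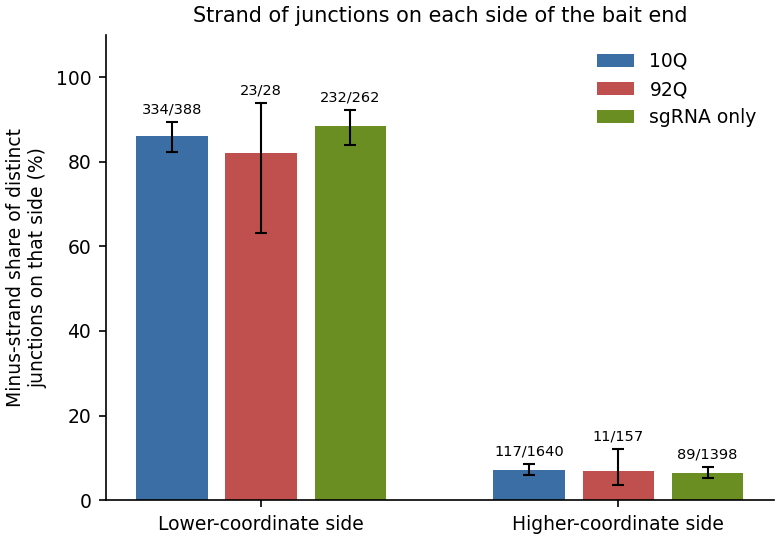
Minus-strand share of the distinct junctions on each side of the bait end (y axis, percent) in the 10Q, 92Q and sgRNA-only libraries, with bars starting at 0, exact 95% intervals as error bars and the counts above them. All 3 libraries stand above 80% on the lower-coordinate side and near 7% on the higher side.

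Read by side, the minus strand made up 86.1% of the lower-side junctions with 10Q (334 of 388), 82.1% with 92Q (23 of 28) and 88.5% with sgRNA only (232 of 262). On the higher side it made up 7.13% with 10Q (117 of 1640), 7.01% with 92Q (11 of 157) and 6.37% with sgRNA only (89 of 1398). The 3 libraries overlapped in their intervals on both sides. The side share of minus-strand junctions did not separate 92Q from 10Q, with a difference of 6.41 points (95% interval -7.47 to 23.6; adjusted p = 0.549 by Fisher's exact test), or 10Q from the sgRNA alone, with -1.78 points (-8.19 to 4.48; adjusted p = 0.672 by Fisher's exact test). With 34 junctions in the 92Q library these intervals leave room for sizeable differences.

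The sides also differed in how far the junctions lay from the cut. Lower-side inverted joinings were spread over kilobases, with a median distance of 2778 bp with 10Q, 2502 bp with 92Q and 2522 bp with sgRNA only. Higher-side inverted joinings lay nearer, with medians of 1065 bp, 893 bp and 1108 bp. Those medians were closer to the normal-order joinings of the same side, at 1452 bp, 1045 bp and 1290 bp. Within 1 kb lay 13.5% of the lower-side minus-strand junctions with 10Q (45 of 334), 8.70% with 92Q (2 of 23) and 12.1% with sgRNA only (28 of 232). On the higher side the shares within 1 kb were 46.2% (54 of 117), 54.5% (6 of 11) and 40.4% (36 of 89). Of these, 28, 4 and 22 stood in a cluster at 101 to 250 bp, where 15, 1 and 6 reached a mapping quality of 30. At 501 to 1000 bp alone the shares were 21.4%, 18.2% and 15.7% on the higher side. On the lower side they were 8.08%, 8.70% and 9.48%, so the contrast was smaller there. Medians and shares without the cluster were not computed.

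**Figure D2:**
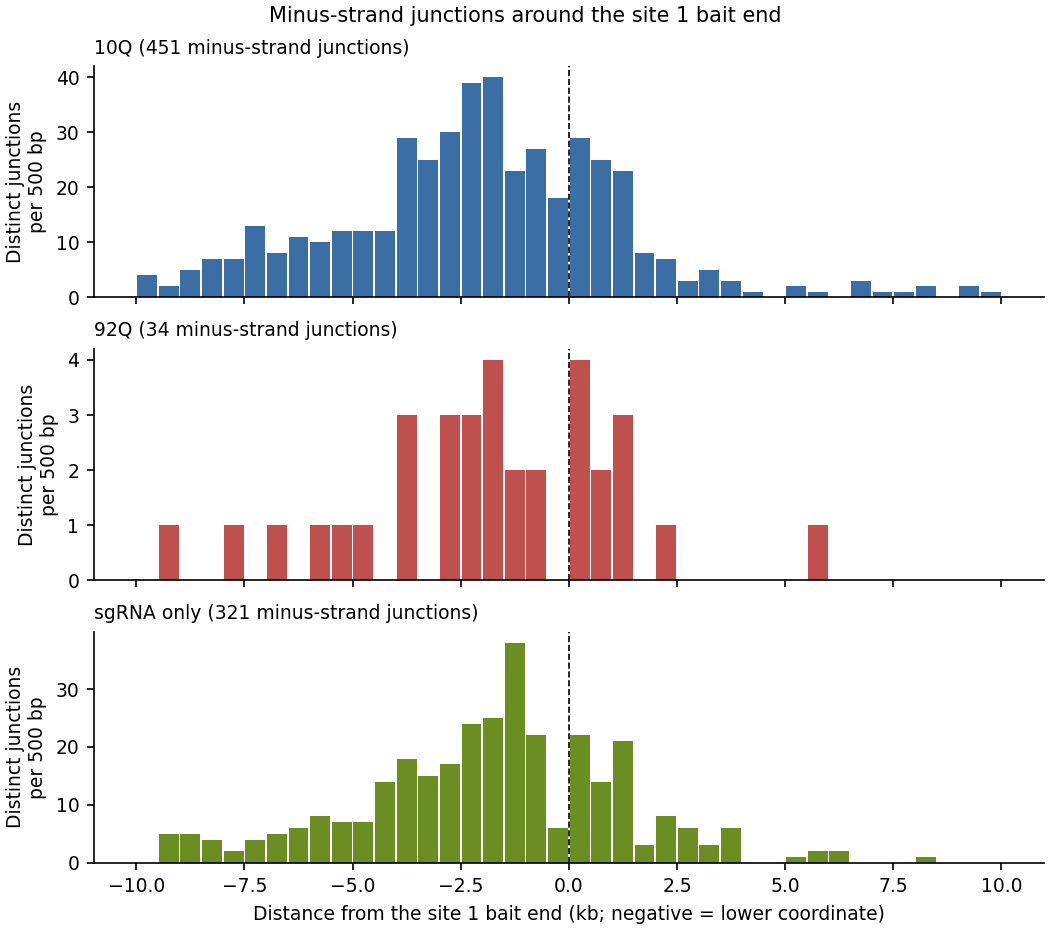
Distinct minus-strand junctions per 500 bp (y axis, a separate scale per library) against signed distance from the bait end in kb (x axis), with the bait end as a dashed line. In the 10Q and sgRNA-only libraries the lower side peaks away from the cut, at 40 and 38 junctions per 500 bp, while the higher side thins out beyond 1.5 kb. The 500 bp beside the cut on the lower side include a stretch, 326 to 362 bp, that no aligned read covered.

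Along the lower side the 10Q library held 68 minus-strand junctions per kb at 251 to 500 bp, 54 at 501 to 1000 bp, 63 at 1001 to 2000 bp, 49 at 2001 to 5000 bp and 15.8 at 5001 to 10000 bp. The sgRNA-only library held 20, 44, 63, 31.7 and 9.20 per kb over the same classes, so its density was highest at 1001 to 2000 bp. The 92Q library, with 23 lower-side junctions, held 0, 4, 6, 3.33 and 1 per kb. The fullest 500 bp in the 10Q library ran from 1501 to 2000 bp below the bait end (40 junctions) and in the sgRNA-only library from 1001 to 1500 bp (38 junctions). The 92Q library also had most of its lower-side junctions per 500 bp at 1501 to 2000 bp, with 4. In none of the 3 libraries was the fullest 500 bp of the lower side the one beside the cut. That nearest 500 bp includes a stretch, from 326 to 362 bp, that no aligned read covered in the 4 libraries. Starts whose reads would run into it are missing from the count. Per kb, the class at 251 to 500 bp was the densest of the 10Q library in spite of this stretch. How the profile would look without this limit was not tested.

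Normal-order joinings on the higher side fell off faster. They numbered 588, 636, 409, 142 and 32.4 per kb over those classes with 10Q, and 472, 546, 408, 114 and 25 with sgRNA only. Set against them at matched distance, lower-side inverted joinings with 10Q were 7.89% of the pair within 1 kb (45 against 525; 5.82 to 10.4) and 32.8% at 5001 to 10000 bp (79 against 162; 26.9 to 39.1). With the sgRNA alone they went from 6.06% (4.06 to 8.64) to 26.9% (20.4 to 34.2). With 92Q they went from 2.70%, 2 against 72, to 55.6%, 5 against 4 (21.2 to 86.3). Counted as reads the 10Q shares were 2.99% and 34.1%, those with sgRNA only 2.70% and 22.8%, and those with 92Q 1.96% and 60.0%. The relation turned in the 10Q and sgRNA-only libraries when neighbouring starts were merged. With starts linked by gaps of up to 5 bp counted as 1, the 525 plus-strand starts of the 10Q library within 1 kb became 6 and the 45 minus-strand starts became 29, while at 5001 to 10000 bp 136 and 70 remained. With the sgRNA alone 7 and 22 remained within 1 kb, against 103 and 44 at 5001 to 10000 bp.

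**Figure D3:**
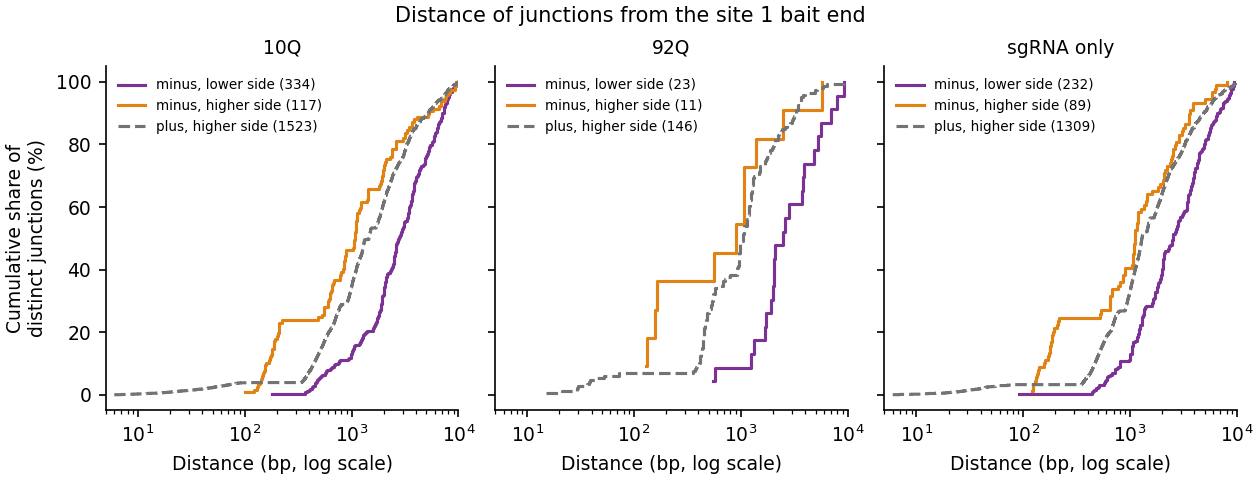
Cumulative share of distinct junctions (y axis, percent) against distance from the bait end (x axis, bp, log scale) for minus-strand junctions of each side and plus-strand junctions of the higher side, with the number of junctions in the legend. The lower-side minus-strand curve runs to the right of the other curves in all 3 libraries, with medians of 2502 to 2778 bp.

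Over both sides together, the share of junctions within 1 kb was 22.0% on the minus strand and 34.4% on the plus strand with 10Q, a difference of -12.5 points (-16.8 to -7.82; adjusted p = 9.82e-07 by Fisher's exact test). It was 23.5% and 49.0% with 92Q, a difference of -25.5 points (-39.1 to -7.24; adjusted p = 0.0162 by Fisher's exact test). With the sgRNA alone it was 19.9% and 33.3%, a difference of -13.4 points (-18.1 to -8.05; adjusted p = 5.63e-06 by Fisher's exact test). Merging neighbouring starts turned the difference to 11.5 points with 10Q and 9.25 points with sgRNA only (adjusted p = 4.45e-06 and 0.000846 by Fisher's exact test). With 92Q, merging left -16.1 points and an outer bound of 5000 bp -22.1 points, and neither passed the test (adjusted p = 0.216 and 0.0843 by Fisher's exact test). With near set at 500 bp the differences were -3.28, -15.4 and -3.82 points with 10Q, 92Q and sgRNA only, and none passed the test (adjusted p = 0.141 for each by Fisher's exact test). Leaving out starts found in more than 1 library turned it to 0.905, 9.66 and 7.06 points with 10Q, 92Q and the sgRNA alone (adjusted p = 0.937, 0.769 and 0.0168 by Fisher's exact test). That setting mostly removed plus-strand starts. It left 777 of 1577 plus-strand and 413 of 451 minus-strand starts with 10Q, and 29 of 151 and 25 of 34 with 92Q. With the sgRNA alone it left 533 of 1339 and 282 of 321. The near share of minus-strand junctions itself did not separate the libraries, at 1.58 points for 92Q against 10Q (-10.2 to 18.4; adjusted p = 0.831 by Fisher's exact test) and 2.01 points for 10Q against the sgRNA alone (-3.90 to 7.71; adjusted p = 0.628 by Fisher's exact test).

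Close to the cut the strands alternated on the higher side. From 101 to 250 bp stood 28 minus-strand junctions with 10Q, 4 with 92Q and 22 with sgRNA only, beside 1, 0 and 0 plus-strand junctions. That is 23.9%, 36.4% and 24.7% of all higher-side inverted joinings of the 3 libraries in a stretch of 150 bp. Inside 100 bp the order was the opposite, with 0 minus-strand junctions in every library and 59, 10 and 43 plus-strand junctions. From 251 to 500 bp minus-strand junctions numbered 1, 0 and 0 and plus-strand junctions 147, 29 and 118. This pattern lies beside a stretch that no read covered: from 246 to 338 bp above the bait end, 93 bp, no aligned read of either strand was found in any of the 4 libraries. Minus-strand junctions stopped at 221 bp with 10Q and resumed at 484 bp, and plus-strand junctions stopped at 112 bp and resumed at 339 bp. Aligned reads of both strands had a median length of 141 bp in these libraries. Since no read overlapped the stretch, starts whose reads would run into it are missing too. On the plus strand those are starts within a read's length below the stretch, and on the minus strand starts within a read's length above it. The low counts of 1 strand beside the stretch are thus bound to it and cannot be read as a strand preference of the joinings. Why the stretch was uncovered was not tested.

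**Figure D4:**
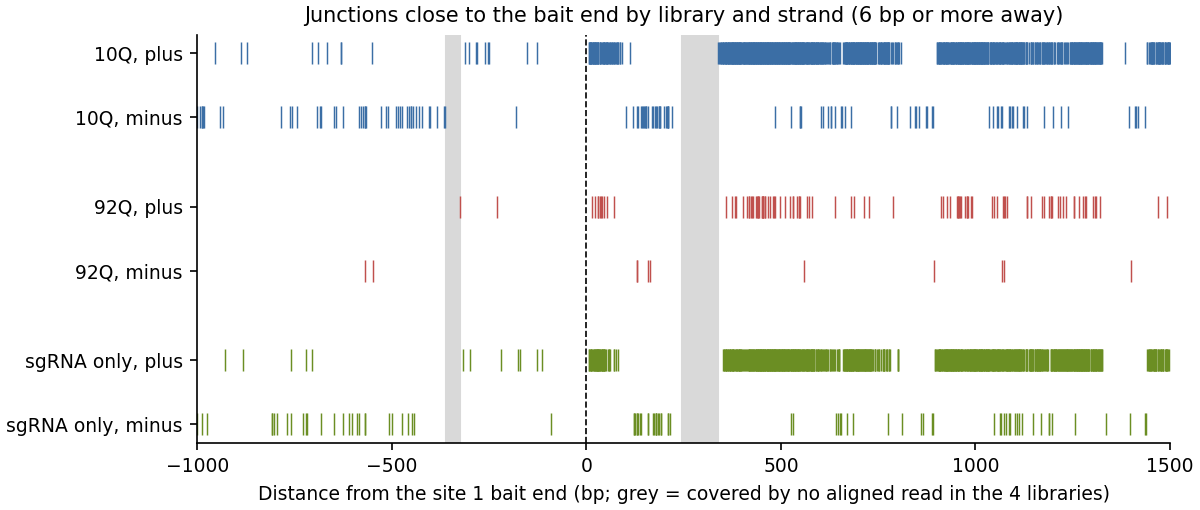
Each tick is a distinct junction at its distance from the bait end (x axis, bp) by library and strand (rows), and grey bands mark stretches of at least 20 bp that no aligned read covered in the 4 libraries. Minus-strand junctions gather below the upper grey band, from 101 to 221 bp with 10Q, where plus-strand junctions are nearly missing.

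The cluster was poorly placed by the aligner. A mapping quality of 30 or more was reached by 15 of its 28 junctions in the 10Q library, by 1 of 4 in the 92Q library and by 6 of 22 in the sgRNA-only library, against 67.0%, 70.6% and 67.6% of all inverted joinings in those libraries. An alignment that reached back to or across the bait end was found for 4, 1 and 4 junctions. Without the cluster the higher-side share of inverted joinings was 21.0% with 10Q, 23.3% with 92Q and 22.4% with sgRNA only. On the lower side a stretch from 326 to 362 bp was likewise uncovered, and nearer than that stood a single minus-strand junction with 10Q, at 180 bp (3 reads), and a single one with sgRNA only, at 91 bp (1 read). The nearest lower-side junction with 92Q was at 549 bp.

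Around the start of Dach1 junctions of both strands were more numerous per 300 bases than in the stretches beside it. The inverted joinings there, 60 per kb with 10Q and 56.7 with sgRNA only, were no denser than on the lower side. At 1001 to 2000 bp that side held 63 per kb in both libraries. The RefSeq start window of Dach1, 250 bases before to 50 after its start, covers chr14:98169716-98170015 on the minus strand, 990 to 1289 bp above the bait end, and held 18 minus-strand junctions with 10Q, 2 with 92Q and 17 with sgRNA only. It is printed because these junctions fall in it, and its 34 capitals mark the bases at which a minus-strand prey began in any library, each prey running on to the right as printed.
Dach1 start window: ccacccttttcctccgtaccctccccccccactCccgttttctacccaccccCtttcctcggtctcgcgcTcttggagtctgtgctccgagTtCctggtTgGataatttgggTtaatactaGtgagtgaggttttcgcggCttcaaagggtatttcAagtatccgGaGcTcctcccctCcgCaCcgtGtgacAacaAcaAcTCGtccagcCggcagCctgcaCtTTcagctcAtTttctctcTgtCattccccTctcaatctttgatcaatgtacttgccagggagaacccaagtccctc
Of the capitals 24 lie in the last 150 bases, nearer to the cut. The 300 bases next nearer to the bait end held 11, 1 and 6 minus-strand junctions and the 300 bases next farther 5, 1 and 4. Plus-strand junctions were also most numerous in the start window, at 210, 27 and 230 against 161, 18 and 134 nearer and 88, 9 and 86 farther. The minus-strand share in the window was 7.89% with 10Q (4.75 to 12.2), 6.90% with 92Q (0.846 to 22.8) and 6.88% with sgRNA only (4.06 to 10.8), close to the 7.13%, 7.01% and 6.37% of the whole higher side. The 138 bp between Dach1 and Gm33583 lie inside the start window, so their junctions are among those already counted. They held 14, 2 and 13 minus-strand junctions, or 101, 14.5 and 94.2 per kb, beside 93, 12 and 99 plus-strand junctions. The part of Gm33583 within 10 kb of the bait end held 48, 3 and 40 minus-strand junctions, or 5.44, 0.340 and 4.53 per kb.

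Single positions were mostly seen once. Of the inverted joinings, a single read stood behind 266 of 451 in the 10Q library, 33 of 34 in the 92Q library and 219 of 321 in the sgRNA-only library, or 59.0%, 97.1% and 68.2%. Plus-strand junctions had a single read in 35.9%, 80.8% and 38.7% of cases. Reads per junction were 1.80 on the minus strand and 4.05 on the plus strand with 10Q, 1.03 and 1.25 with 92Q, and 1.54 and 3.54 with sgRNA only. At matched distance the strands stood apart near the cut and close together far from it. With 10Q, lower-side minus-strand and higher-side plus-strand junctions had 2.44 and 6.80 reads each within 1 kb and 1.71 and 1.61 at 5001 to 10000 bp. With the sgRNA alone they had 2.21 and 5.15 within 1 kb and 1.33 and 1.66 at 5001 to 10000 bp.

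The 10Q position with the most reads was 98169819, 1093 bp above the bait end, between the 2 genes, with 15 reads. Next came 98168156 (12 reads, 570 bp below), 98166591 (12 reads, 2135 bp below) and 98168251 (10 reads, 475 bp below), all in Dach1, and 98169924 (9 reads, 1198 bp above) in Gm33583. In the sgRNA-only library 98168905 (179 bp above), 98168124 (602 bp below), 98169791 (1065 bp above) and 98168136 (590 bp below) had 6 reads each, and 98168141 (585 bp below) had 5. In the 92Q library 98159399, 9327 bp below, had 2 reads and every other position 1. No single position thus dominated: the largest count was 15 of 812 minus-strand reads with 10Q and 6 of 494 with sgRNA only.

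Most minus-strand positions were found at the exact base in a single library. Of 762 different minus-strand positions, 720 were found in 1 library, 40 in 2 and 2 in 3. The 10Q and sgRNA-only libraries shared 35, which is 7.76% of the 10Q and 10.9% of the sgRNA-only positions. On the plus strand they shared 791, or 50.2% and 59.1%. The 92Q library shared 5 positions with 10Q (14.7% of its 34) and 6 with sgRNA only (17.6%). On the plus strand it shared 72.8% and 74.8% of its positions with them. Within 5 bp partners were more common: 52.9% of the 92Q minus-strand positions had one in the 10Q library and 52.9% in the sgRNA-only library. Between the 10Q and sgRNA-only libraries 38.1% of the 10Q and 48.6% of the sgRNA-only positions had one in the other. The positions found in 3 libraries were 98167007, 1719 bp below (1 read with 10Q, 1 with 92Q and 2 with sgRNA only, mapping quality at most 3), and 98168884, 158 bp above (1, 1 and 3 reads). Of the 42 shared positions 10 lay in the cluster at 101 to 250 bp. Over 100 bp windows, the cluster's window at 100 to 199 bp was the fullest in each library, with 22, 4 and 19 junctions, followed in each by 2001 to 2100 bp below the bait end, with 15, 3 and 14. These windows were picked after their values were seen.

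The share of inverted joinings among all junctions near the cut depended on how they were counted. As distinct junctions it was 22.2% with 10Q (20.4 to 24.1), 18.4% with 92Q (13.1 to 24.7) and 19.3% with sgRNA only (17.5 to 21.3). The difference between 92Q and 10Q was -3.86 points (-9.12 to 2.59) and did not pass the test (adjusted p = 0.383 by Fisher's exact test). Counted as reads the shares were 11.3% with 10Q, 15.6% with 92Q and 9.43% with sgRNA only, so the order of 92Q and 10Q turned (adjusted p = 0.0874 by Fisher's exact test). With neighbouring starts merged they were 46.6%, 24.2% and 44.1%, and the difference of -22.3 points between 92Q and 10Q passed the test (adjusted p = 4.38e-06 by Fisher's exact test). Merging kept 23.1% of the plus-strand starts with 10Q and 66.2% with 92Q, against 70.5% and 94.1% of the minus-strand starts. Its effect depends on how densely starts lie, so this pass cannot be told apart from the difference in depth. At equal reads, with each library reduced to the 960 reads of the 92Q library on assembled chromosomes by exact rarefaction, the expected shares were 13.9%, 18.4% and 12.2%. With a mapping quality of 30 or more the 10Q and 92Q shares were 20.6% and 20.5%. No direction for 92Q against 10Q held under all of these.

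**Figure D5:**
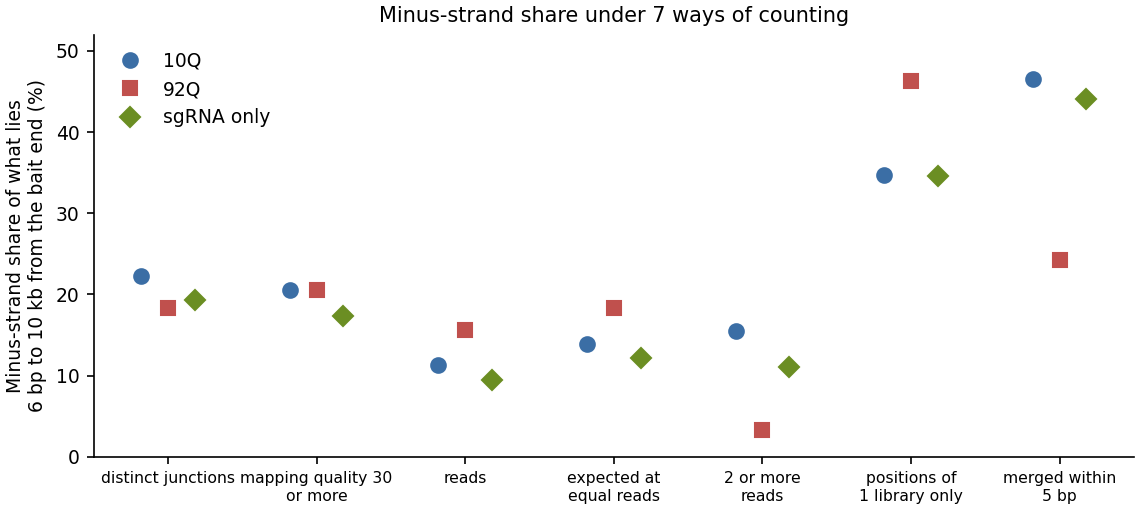
Minus-strand share of what lay 6 bp to 10 kb from the bait end (y axis, percent) in the 3 targeted libraries under 7 ways of counting (x axis), as points with no error bars. The 92Q library lies above the 10Q library counted as reads and at equal reads, and below it with neighbouring starts merged.

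The 10Q library stood 2.90 points above the sgRNA-only library (0.262 to 5.51), which missed the threshold (adjusted p = 0.0638 by Fisher's exact test). Reads of the same start need not be independent molecules, so a p-value from reads overstates the evidence. Counted as reads the difference was 1.85 points and with junctions of 2 or more reads 4.42 points, both past the test (adjusted p = 0.00168 and 0.00837 by Fisher's exact test). It was 2.44 points with neighbouring starts merged, 2.09 points within 5000 bp and 0.105 points without starts found in more than 1 library, none past the test (adjusted p = 0.568, 0.262 and 1 by Fisher's exact test). The non-targeting library had 0 minus-strand junctions among 11 near the bait end, which allows a share of up to 27.3%. Among these near junctions alone, the sgRNA-only share of 19.3% was not distinguishable from it at this depth (adjusted p = 0.224 by Fisher's exact test). With neighbouring starts merged the sgRNA-only share was 44.1% and the difference passed the test (adjusted p = 0.00598 by Fisher's exact test). Merging kept 23.1% of the plus-strand and 76.0% of the minus-strand sgRNA-only starts, which raised that share, while the 11 non-targeting junctions stayed 11.

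Among all distinct junctions of a library, inverted joinings near the cut made up 8.14% with 10Q (7.43 to 8.89), 8.29% with sgRNA only (7.44 to 9.20) and 4.17% with 92Q (2.90 to 5.77), an interval that lies below the other two. The plus-strand junctions of the same window made up 28.5%, 34.6% and 18.5%. At equal reads the minus-strand shares were 7.08%, 6.72% and 4.17% and the plus-strand shares 43.9%, 48.5% and 18.5%. At 960 reads the 10Q library was expected to hold 55.3 inverted joinings and the sgRNA-only library 50.7, against 34 found with 92Q (exact Poisson 95% interval 23.5 to 47.5). By side the expected numbers were 40.3 lower and 15.0 higher with 10Q and 36.3 and 14.5 with sgRNA only, against 23 and 11 with 92Q. The non-targeting library held 0 inverted joinings near the cut among its 128 distinct junctions (625 reads). This allows a share of up to 2.34%, below the sgRNA-only interval of 7.44 to 9.20. These shares were not tested, and a single pooled library stands for each group.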

How the data were processed

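Each deposited line was 1 aligned read with chromosome, start, end, name, a score (its mapping quality, 0 to 42 in the deposited lists) and strand. Per the submitters' processing notes, Bowtie2 and the builds mm10 and mm9 were used, with no version or role given. How reads were filtered, deduplicated or split into on-cut and off-cut lists is not given in the sources used here. The bait end was taken as the 5′ end seen most often in the non-targeting on-cut list. Reads of the same chromosome, 5′ end and strand were collapsed, and the 40 reads of the 4 libraries outside chromosomes 1 to 19, X and Y were left out. Shares carry Clopper-Pearson intervals and differences Newcombe intervals, all at 95%. The 13 Fisher's exact tests were adjusted together with a threshold of 0.05, and 10 alternative settings were tried. Where a count was 0, 3 counts gave the limit. The code was tested on simulated data. Members, lists and tests were chosen with earlier results of these data known. Positions were named by rule: the 5 with most reads per library, the nearest and farthest, and those in 3 or more libraries. Python 3.11.15, SciPy 1.17.1 and pandas 2.3.3 were used. Gene positions and the printed start window come from RefSeq (GRCm38.p6).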

Additional observations from a re-analysis of the deposited data

How the results depend on the processing

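The higher-side deficit of minus-strand junctions kept its direction under every alternative in the 3 targeted libraries, and its call under every alternative with a test (equal reads has none) except in the 92Q library with 2 or more reads (-96.6 points, 1 junction). With 2 or more reads the other 92Q results rest on that junction too: -27.6 points for side and -25.4 for the near share against 10Q (reversed), and -69.0 for near share between strands. The same setting gave 10Q minus sgRNA only 1.10 points for side and -0.0848 for near share, both reversed, and 4.42 for minus-strand share. A mapping quality of 30 gave 2.53 points for that side share. Counted as reads, 92Q minus 10Q was 4.35 points for minus-strand share and -2.27 for near share, and 10Q minus sgRNA only 1.85. At equal reads they were 4.49 and -1.07, and near share between strands -24.6 with 10Q and -19.0 with sgRNA only. Merging within 5 bp gave -22.3 points for 92Q minus 10Q and 44.1 for sgRNA only minus non-targeting in minus-strand share, and 11.5, -16.1 and 9.25 for near share between strands with 10Q, 92Q and the sgRNA alone. Without shared positions, 92Q minus 10Q was 11.6 points (minus-strand share), -1.42 (side) and -0.339 (near share), and near share between strands 0.905, 9.66 and 7.06. A near limit of 500 bp gave -3.28, -15.4 and -3.82, all short of the test, and an outer bound of 5000 bp -22.1 with 92Q, also short of it. The cause was not tested. Of 107 tested values under alternatives, 81 kept direction and side of the threshold. Of the 12 untested values at equal reads, 8 kept direction within the reported 95% interval. Some of the 81 could not change. An inner bound of 20 bp, or leaving out positions near non-targeting junctions, removed no minus-strand junction. The side and near shares compared between libraries were therefore the same as before. No paired analysis was possible because each group has 1 library. The 92Q depth of 34 junctions limits every comparison with it.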

Other observations

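Just outside the window, minus-strand on-cut junctions went on at low density. Between 10 and 20 kb from the bait end stood 48 with 10Q, 6 with 92Q and 62 with sgRNA only, so the sgRNA-only library held more than the 10Q library there, the reverse of the order inside 10 kb (321 and 451). The difference was not tested. At the outer bound the 10Q library had 9 junctions in the last 1 kb inside and 15 in the first 1 kb outside, and the sgRNA-only library 5 and 11. The junctions next to the bound lay at 9824 and 10018 bp with 10Q, 9327 and 10062 bp with 92Q, and 9455 and 10064 bp with sgRNA only. At the inner bound nothing was left out, since 0 minus-strand junctions lay within 5 bp of the bait end.

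The 4 libraries of the other bait site held 0 junctions of either strand in the same window around the site 1 bait end.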
